A study of Mus musculus with 12 samples.

Results

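Genes of hepatic glucose production, glycolysis and insulin signalling were read in livers of male mice that were wild-type or labelled Cyp1b1 null and ate little or much fat. The set was named as 9 genes: Pck1, G6pc, Fbp1, Pcx, Pklr, Irs1, Irs2, Insr and Igfbp1. Members were the probes, other than control probes, that carry one of these names. This found 7 of the 9 genes, on 9 of 41174 probes; Pck1 and Irs2 had no probe under their names and are not analysed here. All 7 were among the 14911 genes tested, G6pc, Fbp1, Pcx, Pklr and Igfbp1 through 1 probe each and Irs1 and Insr through the brighter of 2.

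RNA was measured on 12 two-colour Agilent arrays, 3 for each of 4 groups: wild-type C57BL6/J on 10% fat, wild-type on 60% fat, null on 10% fat and null on 60% fat. All mice were male, went onto their diet at 3 weeks of age and were 14 weeks old when killed. Cyp1b1 is a cytochrome P450 enzyme acting on oestrogens, retinoids and aromatic hydrocarbons. The sources used here do not say how the gene was disrupted, or whether the mice were fed or fasted when killed. Each array compared liver RNA in Cy3, described as 3 pooled samples, with a Cy5 reference pooled from wild-type livers on low fat. Unless another scale is named, a value is the log2 of sample over reference. The labels do not say whether replicates were separate pools of mice. A p-value here covers only the spread among these arrays, whose number, 3 per group, limits the precision.

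In the fasted liver, gluconeogenesis builds glucose from lactate, amino acids and glycerol, and glucose-6-phosphatase releases it. After a meal, insulin binds its receptor (Insr), the receptor phosphorylates insulin receptor substrates such as Irs1, and Akt then inactivates FoxO transcription factors, which drive gluconeogenic genes and Igfbp1. Igfbp1, a secreted protein that binds insulin-like growth factors, is one of the liver genes best known for being shut off by insulin and switched on by fasting, glucocorticoids and cellular stress.

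RefSeq promoter windows on GRCm38.p6, the 250 bases before each annotated start, were present for 6 of the 7 genes; Insr had none. They were searched on both strands for CAAAACA, the core of the insulin response element that FoxO proteins bind, and for the FoxO motif GTAAACA. On that build Igfbp1 spans chr11:7197787-7202546, G6pc chr11:101367716-101377903, Fbp1 chr13:62864753-62888298, Pcx chr19:4510472-4621752, Pklr chr3:89136122-89146815, Irs1 chr1:82233105-82291439 and Insr chr8:3150922-3279649. Among the 7 genes, 3 windows hold CAAAACA. They are shown because 2 of them belong to G6pc and Igfbp1, the members that stood farthest from the wild-type low-fat values. The choice thus came from the measured values. Capitals mark the match, which reads TGTTTTG where it lies on the other strand.
Igfbp1, chr11:7197537-7197786, plus strand: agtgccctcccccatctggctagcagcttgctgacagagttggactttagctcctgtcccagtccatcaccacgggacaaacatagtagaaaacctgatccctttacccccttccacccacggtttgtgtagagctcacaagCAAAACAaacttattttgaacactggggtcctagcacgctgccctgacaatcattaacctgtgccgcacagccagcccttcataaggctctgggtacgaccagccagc
G6pc, chr11:101367466-101367715, plus strand: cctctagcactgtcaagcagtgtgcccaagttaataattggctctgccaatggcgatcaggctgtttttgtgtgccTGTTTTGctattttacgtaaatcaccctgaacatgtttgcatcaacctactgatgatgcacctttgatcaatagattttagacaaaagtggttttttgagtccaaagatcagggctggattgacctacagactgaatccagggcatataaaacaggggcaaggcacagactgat
Irs1, chr1:82291440-82291689, minus strand: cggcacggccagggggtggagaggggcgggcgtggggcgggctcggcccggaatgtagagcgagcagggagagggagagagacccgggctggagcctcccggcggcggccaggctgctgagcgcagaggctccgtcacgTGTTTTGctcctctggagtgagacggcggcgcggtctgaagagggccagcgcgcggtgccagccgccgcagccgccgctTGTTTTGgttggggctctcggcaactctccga
The match lies 102 to 108 bases before the start of Igfbp1 and 168 to 174 bases before that of G6pc. Irs1, whose groups overlapped in every pairwise comparison, has 2 matches, at 105 to 111 and at 26 to 32 bases before its start. The window of Irs2, which had no probe here, also holds CAAAACA, at 31 to 37 bases before its start. CAAAACA occurred in 5.56% of 32851 windows of the same length, and GTAAACA, found in none of the members' windows, in 3.17%. Of the other motifs searched, the E-box CACGTG (6.02% of windows) was in the windows of Irs1 and Pcx and TGACG (17.77%) in that of Irs1, where the E-box overlaps both its neighbour and the first match shown. The cAMP response element TGACGTCA (1.55%) and the glucocorticoid receptor motif TGTTCT (16.08%) were in none. The windows of Fbp1 and Pklr held no match to any of the 6 motifs. Pcx and Pklr had windows at more than a single annotated start, and only the upstream window of Pcx held its match. Whether any motif bears on the measured values was not tested.

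Several features of the arrays touch these genes. Arrays were read in 3 scans. Within a scan each group had a single array or none, except that scan 1 held null arrays 2 and 3 on low fat and 1 and 3 on high fat. Wild-type low-fat array 1 was the only array of its group in scan 1. It enters every scan 1 value that uses that group. Among wild-type arrays, each scan and slide held 1 array of each diet, with the same replicate number. Scan 3 held no null array. In scan 1 the null low-fat arrays lay on slide 1 and all other arrays on slide 2. Within scan 1, slide therefore cannot be told apart from genotype at low fat, from diet in null livers or from the interaction. The source label names liver hepatocytes, and 10 of 12 hepatocyte markers were measured, but so were all 14 markers of Kupffer cells and macrophages and all 12 of stellate cells and fibroblasts. On high fat the median log2 ratio of the hepatocyte markers was 0.47 to 0.93 on null and -0.10 to 0.41 on wild-type arrays. On low fat it was 0.19 to 0.60 and -0.24 to 0.43. Their median genotype difference at high fat was 0.31, with 0.07 within scan 1 and 0.02 within scan 2. At low fat it was 0.20, with -0.34 and 0.33. Wild-type low-fat array 1 stood apart: the median log2 ratio of the macrophage markers was 0.31 on it and -1.48 to -0.29 on the other 11 arrays, and that of the stellate markers 0.30 against -1.06 to -0.10. The summed sample intensity of the macrophage markers was 16031 to 68733 in wild-type low-fat, 15694 to 28427 in wild-type high-fat, 24582 to 28181 in null low-fat and 25199 to 32022 in null high-fat livers. Of 7 adipocyte markers 3 were measured (Adipoq, Plin1, Lep and Retn were not), and null low-fat array 1 and wild-type low-fat array 3 stood apart in them, with median log2 ratios of 3.45 and 1.53 against -1.41 to 0.08 on the other arrays. Their summed sample intensity was 2121 to 8632 in wild-type low-fat, 1556 to 4235 in wild-type high-fat, 858 to 9383 in null low-fat and 844 to 1127 in null high-fat livers. Ins1, Ins2 and Gcg of the pancreas were not measured above background in any group. The part of these markers in the results was not tested. In bulk RNA, fewer cells of a type and less RNA per cell cannot be told apart. The Cyp1b1 probe read 1.58 to 1.68 in null low-fat and 0.65 to 1.68 in null high-fat livers, above -1.11 to 0.16 in wild-type low-fat and -0.88 to -0.13 in wild-type high-fat livers. The sources used here do not say whether it lies in the deleted part, and it therefore does not check the labels.

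Igfbp1 had the largest difference of the 7 genes in every comparison but genotype at low fat. It was lowest in null livers on high fat and, in each genotype, lower on high fat than on low fat on every array. G6pc was higher in null than in wild-type livers on low fat. Pcx differed by diet in opposite directions in the genotypes. Fbp1, Pklr, Irs1 and Insr had overlapping arrays in all 4 pairwise comparisons. No member passed limma's adjusted p of 0.05 in any comparison, in an experiment where few genes did: 3 of 14911 (0.0201%) for null against wild-type at low fat, 2 (0.0134%) at high fat, 1 (0.00671%) for diet in wild-type livers (0 with the replicate number, here the scan, as a block), 1 (0.00671%) for diet in null livers and 0 for the interaction, where 134 genes (0.899%) had an unadjusted p under 0.05.

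**Figure D1:**
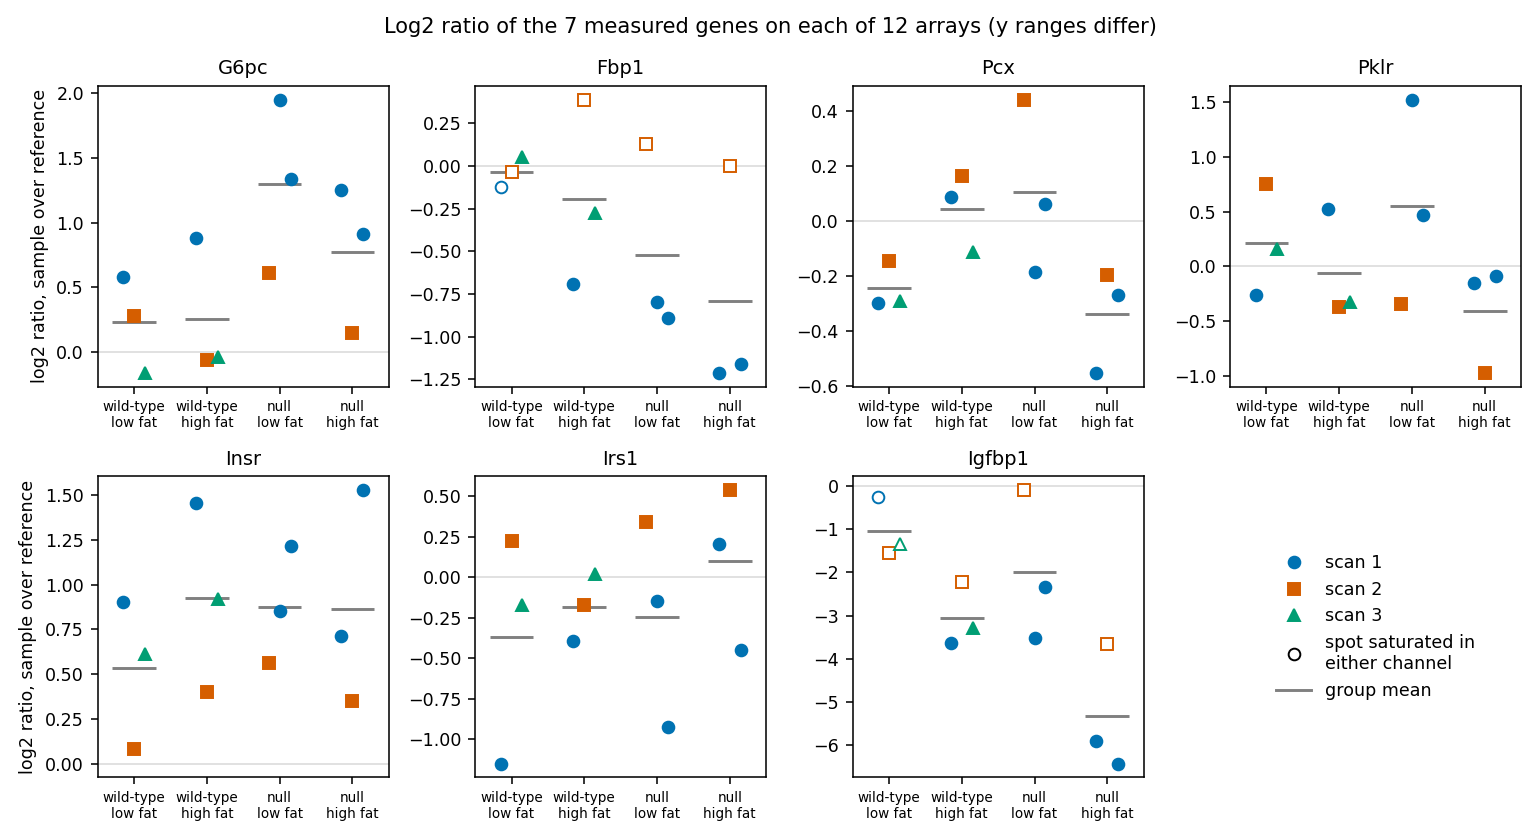
Log2 ratio of sample over the wild-type low-fat pool (y, ranges differ between panels) for each of the 7 genes on the 12 arrays, by group (x); colour and shape give the scan, hollow points a spot saturated in either channel, grey bars the group mean. Igfbp1 spans -0.09 to -6.43 and is lowest on the null high-fat arrays, G6pc is highest on null low-fat arrays 2 and 3, and Insr is lowest in every group on the array of scan 2.

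G6pc encodes the catalytic subunit of glucose-6-phosphatase, the last step of glucose release. Wild-type log2 ratios were 0.58, 0.28 and -0.16 on low fat, 0.88, -0.06 and -0.04 on high fat. Null log2 ratios were 0.61, 1.95 and 1.34 on low fat, all above the wild-type values on low fat, while the null values of 1.25, 0.15 and 0.91 on high fat overlapped the wild-type ones. The lowest null low-fat value exceeded the highest wild-type low-fat value by a narrow margin. On low fat the null mean was higher by 1.06 on the log2 scale (SE 0.39, 95% interval 0.20 to 1.93) or 2.09-fold, with limma's adjusted p = 0.569. Within scan 1 the difference was 1.06 and within scan 2 it was 0.33, and with scan as a block it was 0.75 (limma's adjusted p = 0.209). On high fat the genotype difference was 0.51 (SE 0.39, interval -0.36 to 1.38). High fat differed from low fat by 0.03 (SE 0.39) in wild-type and by -0.53 (SE 0.39) in null livers, and these diet differences did not differ from each other beyond their error (-0.55, SE 0.56, limma's adjusted p = 1.00). The sample channel alone, normalised without the reference, also put null above wild-type arrays on low fat, by 1.05 (SE 0.31, adjusted p = 0.206). The margin was again narrow: the nearest arrays, both of scan 2, read 14.39 (null) and 14.34 (wild-type). The reference signal of every member moved with the scan before normalisation. For G6pc its mean was 2452 to 4527 in scan 1, 23893 to 29927 in scan 2 and 8972 to 12343 in scan 3, and for Pcx 5228 to 8957, 25864 to 28821 and 12283 to 20324; the part of this in the ratios was not tested.

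Fbp1 encodes fructose-1,6-bisphosphatase, which reverses the committed step of glycolysis. Wild-type log2 ratios were -0.12, -0.04 and 0.05 on low fat, -0.69, 0.39 and -0.27 on high fat. Null log2 ratios were 0.13, -0.79 and -0.89 on low fat, -1.21, -0.00029 and -1.16 on high fat. In the groups other than wild-type low fat, the highest value was the array of scan 2, where the reference spot was saturated. Saturation also touched 2 wild-type low-fat arrays, the sample channel of array 1 and the reference of array 2. Null livers differed from wild-type livers by -0.48 (SE 0.38) on low fat and by -0.60 (SE 0.38) on high fat, with overlapping arrays (limma's adjusted p = 0.855 and 1.00). Without the saturated reference spots the differences were -0.81 (SE 0.21, adjusted p = 0.427) and -0.70 (SE 0.21, adjusted p = 1.00). Those spots were the arrays of scan 2, so saturation and scan cannot be told apart. In the sample channel alone, where the reference plays no part, they were -0.10 (SE 0.12) and -0.25 (SE 0.12), smaller than as ratios. On high fat, however, the null arrays lay below the wild-type arrays without overlap on that scale, at 15.12 to 15.30 against 15.42 to 15.54 (limma's adjusted p = 0.808).

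Pcx encodes pyruvate carboxylase, the mitochondrial enzyme that turns pyruvate into oxaloacetate and so opens gluconeogenesis. It was the steadiest member, with a residual SD of 0.20, at the 24.7th percentile of all genes. Wild-type arrays read -0.30, -0.14 and -0.29 on low fat, and 0.09, 0.16 and -0.11 on high fat, all higher. Null arrays read 0.44, -0.19 and 0.06 on low fat, and -0.55, -0.20 and -0.27 on high fat, all lower, though the nearest arrays of the null groups were -0.19 and -0.20. High fat thus differed from low fat by 0.29 (SE 0.18; 0.38, 0.31 and 0.18 within scans 1, 2 and 3) in wild-type and by -0.45 (SE 0.18, limma's adjusted p = 1.00) in null livers. The interaction was -0.74 (SE 0.25, interval -1.29 to -0.18, limma's adjusted p = 1.00), rank 28 of 14911 genes by p. Within scan 1, where it cannot be told apart from slide, it was -0.73, and within scan 2 it was -0.95. In the sample channel alone the wild-type arrays of both diets overlapped, with a difference of 0.03 (SE 0.15), while null high-fat arrays stayed below null low-fat arrays, differing by -0.39 (SE 0.15, limma's adjusted p = 0.922); the interaction there was -0.41 (SE 0.22). On high fat, null arrays were lower than wild-type arrays without overlap, differing by -0.38 (SE 0.18, limma's adjusted p = 1.00); in the sample channel alone they overlapped, with a difference of -0.29 (SE 0.15). With Agilent's processed signals some Pcx differences were smaller: 0.027 (SE 0.22) for genotype at low fat, 0.060 (SE 0.22) for diet in wild-type livers and -0.39 (SE 0.31) for the interaction. The others changed less, to -0.36 (SE 0.22) for genotype at high fat and -0.33 (SE 0.22) for diet in null livers. The authors' deposited table is made of these same processed ratios and repeats them. It gives 0.03 for Pcx in null over wild-type livers at low fat and -0.36 at high fat. For high over low fat in wild-type livers it gives 0.06.

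Pklr encodes the liver form of pyruvate kinase, the last step of glycolysis, which insulin and glucose induce. Its arrays were widely spread. Wild-type log2 ratios were -0.27, 0.75 and 0.15 on low fat, 0.53, -0.37 and -0.33 on high fat. Null log2 ratios were -0.35, 1.52 and 0.46 on low fat, -0.15, -0.97 and -0.09 on high fat. The null high-fat arrays were low as a group, but overlapped the null low-fat arrays through low-fat array 1. High fat differed from low fat in null livers by -0.95 (SE 0.46, interval -1.96 to 0.05, limma's adjusted p = 1.00), by -1.11 within scan 1 and by -0.63 within scan 2. With 1 array left out it ranged from -1.40 to -0.46, the smaller size without null low-fat array 2. In wild-type livers it differed by -0.27 (SE 0.46), with 0.79 in scan 1 and -1.12 in scan 2.

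Insr, the insulin receptor, read 0.90, 0.08 and 0.61 in wild-type livers on low fat, 1.46, 0.40 and 0.92 on high fat. In null livers it read 0.56, 0.85 and 1.21 on low fat, 0.71, 0.35 and 1.53 on high fat. The groups overlapped throughout. In each group the lowest value was the array of scan 2. The genotype differences were 0.35 (SE 0.35) on low fat and -0.06 (SE 0.35) on high fat. The diet differences were 0.39 (SE 0.35) in wild-type and -0.01 (SE 0.35) in null livers, and limma's adjusted p was 0.903 or above for all of them. Within scans 1, 2 and 3 the wild-type diet difference was 0.55, 0.32 and 0.31, higher on high fat each time. In a fit of the 6 wild-type arrays with the replicate number, which there is the scan, as a block, it was 0.39 with a smaller SE of 0.15 (limma's adjusted p = 0.827). The other Insr probe was well above background on 2 of 12 arrays and gives no level.

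Irs1, the adaptor that links the receptor to phosphatidylinositol 3-kinase, read -1.15, 0.22 and -0.17 in wild-type livers on low fat, -0.39, -0.17 and 0.02 on high fat. In null livers it read 0.34, -0.15 and -0.93 on low fat, 0.20, 0.54 and -0.45 on high fat. Its groups overlapped throughout. The genotype differences were 0.12 (SE 0.40) on low fat and 0.28 (SE 0.40) on high fat, and the diet differences 0.18 (SE 0.40) and 0.34 (SE 0.40). With wild-type low-fat array 1 left out, the low-fat genotype difference was -0.27 and the wild-type diet difference -0.21, both turned in sign. The other, dimmer Irs1 probe gave differences of -0.09, 0.02, -0.09 and 0.02 in the same order, each smaller than their SE of 0.21. Its raw sample signal was only 57.6 to 94.2, against 1106 to 2123 for the brighter probe. In the authors' deposited table the dimmer probe has 0.29 and 0.18 for genotype at low and high fat, and 0.36 for diet in wild-type livers. The part of the low signal in this was not tested.

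Igfbp1 had the widest range of the set, with a residual SD of 1.25, at the 99.8th percentile of all genes. Wild-type log2 ratios were -0.25, -1.55 and -1.34 on low fat, -3.63, -2.23 and -3.30 on high fat. Null log2 ratios were -0.09, -3.51 and -2.34 on low fat, -5.92, -3.65 and -6.43 on high fat. The null low-fat arrays covered nearly the whole range of both wild-type groups, whereas every null high-fat array lay below all 9 others, in 1 case by a narrow margin (-3.65 against -3.63). The group means ran from -1.05 ± 0.70 (SD, n = 3) in wild-type low fat through -1.98 ± 1.74 (SD, n = 3) in null low fat and -3.05 ± 0.73 (SD, n = 3) in wild-type high fat to -5.33 ± 1.48 (SD, n = 3) in null high fat. Neighbours in that order overlapped, except that null high fat lay apart from wild-type high fat.

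High fat was lower than low fat without overlap in both genotypes. The log2 difference was -2.01 (SE 0.87, interval -3.92 to -0.10) in wild-type livers and -3.35 (SE 0.87, interval -5.26 to -1.44) in null livers. Every wild-type low-fat array had Igfbp1 saturated in 1 channel, the sample on array 1 and the reference on arrays 2 and 3, so the first value is not an exact size and no fold is given. Limma's adjusted p was 1.00 for both, with ranks by p of 511 and 27 among 14911 genes. In null livers the diet difference was -3.25 within scan 1, where diet and slide cannot be told apart, and -3.56 within scan 2. In wild-type livers it was -3.38, -0.68 and -1.96 within scans 1, 2 and 3. In the fit of the wild-type arrays with the replicate block it was -2.01 (SE 0.50, limma's adjusted p = 0.827). Without wild-type low-fat array 1, which stood apart in its macrophage and stellate markers and whose Igfbp1 sample spot was saturated, it was -1.61 (SE 0.97, limma's adjusted p = 0.988); the part of those markers in the result was not tested.

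Null livers were lower than wild-type livers on high fat, again without overlap. The log2 difference was -2.28 (SE 0.87, interval -4.19 to -0.37, limma's adjusted p = 1.00). The difference was -2.54 within scan 1 and -1.42 within scan 2. On low fat the genotype difference was -0.94 (SE 0.87, limma's adjusted p = 0.887), with -2.68 in scan 1 and 1.46 in scan 2, so its direction differed between scans; with 1 array left out it ranged from -1.88 to -0.17. The diet differences of the genotypes differed by -1.34 (SE 1.23, interval -4.04 to 1.36, limma's adjusted p = 1.00), a difference within the error that ranged from -2.18 to -0.40 with 1 array left out.

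The Igfbp1 spot was near the scanner's ceiling in the reference channel. The reference was saturated on 5 arrays: in wild-type livers arrays 2 and 3 on low fat and array 2 on high fat, in null livers array 1 on low fat and array 2 on high fat. There the reference is read too low and the ratio too high. These spots include every array of scan 2, so saturation and scan cannot be told apart. With those spots left out the differences were -2.68 (SE 0.51) for genotype at low fat, -2.71 (SE 0.42) at high fat, -3.22 (SE 0.51) for diet in wild-type and -3.25 (SE 0.42) in null livers. Their limma adjusted p-values were 0.299, 0.257, 0.618 and 0.394, and the wild-type low-fat group then rested on array 1 alone, whose sample spot is itself saturated. The SE of the low-fat genotype, wild-type diet and interaction values in that fit comes from the other groups, so these are given as values only. The interaction was -0.03 (SE 0.66) in that fit, against -1.34 with all spots. The low-fat genotype and null diet values of that fit come from the same arrays as the scan 1 values above and repeat them.

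The sample channel alone, quantile-normalised, does not use the reference and was saturated for Igfbp1 on wild-type low-fat array 1 only. On that log2 scale wild-type arrays read 15.82, 14.02 and 14.61 on low fat, 13.40, 12.65 and 12.98 on high fat. Null arrays read 15.08, 13.09 and 14.76 on low fat, 10.92, 11.32 and 10.68 on high fat. Every null high-fat array was again below the other 9, here by a wide margin. The differences were -1.80 (SE 0.52, limma's adjusted p = 0.309) for diet in wild-type livers, -3.34 (SE 0.52, adjusted p = 0.0972) for diet in null livers, -2.04 (SE 0.52, adjusted p = 0.203) for genotype on high fat and -0.50 (SE 0.52, adjusted p = 0.769) for genotype on low fat. The interaction was -1.53 (SE 0.74, limma's adjusted p = 1.00). The authors' deposited table gives Igfbp1 log2 ratios of -0.78 for null over wild-type at low fat, -2.35 at high fat and -1.79 for high over low fat in wild-type livers.

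**Figure D2:**
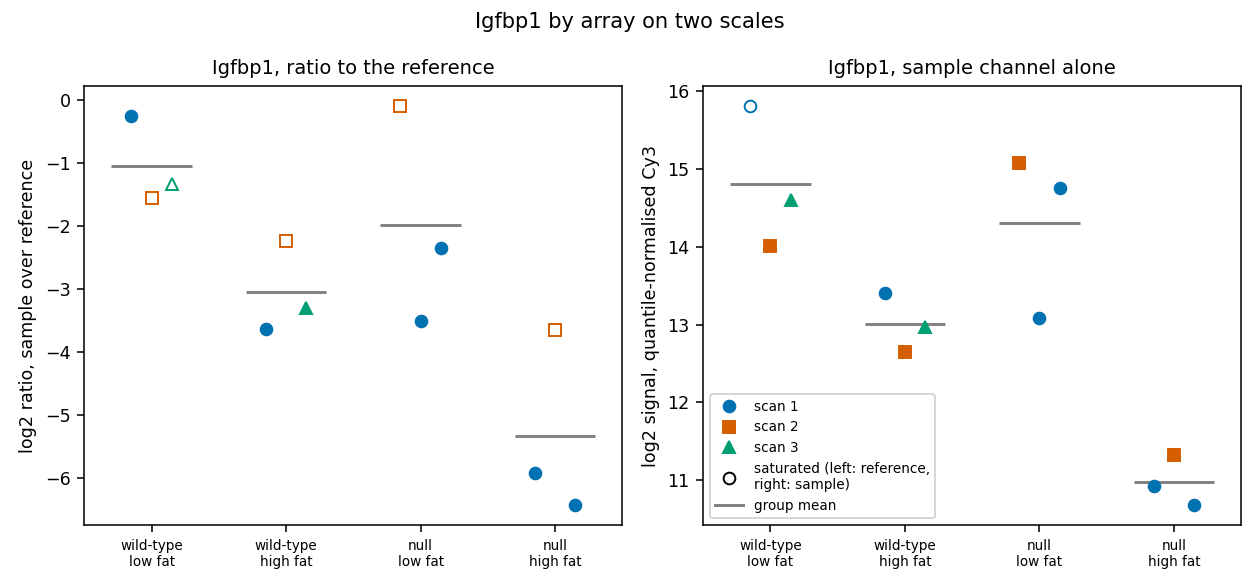
Igfbp1 on the 12 arrays, left as the log2 ratio of sample over reference and right as the log2 quantile-normalised sample signal (y), by group (x); colour and shape give the scan, hollow points a saturated reference (left) or sample (right) spot, grey bars the group mean. On both scales the 3 null high-fat arrays lie below the other 9, and they are closer together in the sample channel (10.68 to 11.32) than as ratios (-6.43 to -3.65).

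Directions among the 7 genes differed by comparison. For null against wild-type at low fat, 5 of 7 were higher and 2 lower, with a median difference of 0.33 beside -0.0055 for all genes; 1 of 7 had an unadjusted p under 0.05, against 7.22% of all genes, and the arrays of 1 of 7 did not overlap, against 9.36%. For the same contrast at high fat, 2 were higher and 5 lower (median -0.35, all genes 0.0028), with 1 at p under 0.05 (all genes 2.56%) and 2 without overlap (7.77%). For diet in wild-type livers, 4 were higher and 3 lower (median 0.03, all genes 0.0062), with 1 at p under 0.05 (4.03%) and 2 without overlap (7.22%). For diet in null livers, 1 was higher and 6 were lower (median -0.45, all genes 0.019), with 2 at p under 0.05 (1.9%) and 2 without overlap (4.86%). For the interaction, 1 was above and 6 were below 0 (median -0.55, all genes 0.011), with 1 at p under 0.05 (0.899%). Igfbp1 and Pcx made up 6 of the 7 instances without overlap, and G6pc the other. The pairwise comparisons are not independent of each other, since each group enters 2 of the 4.

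**Figure D3:**
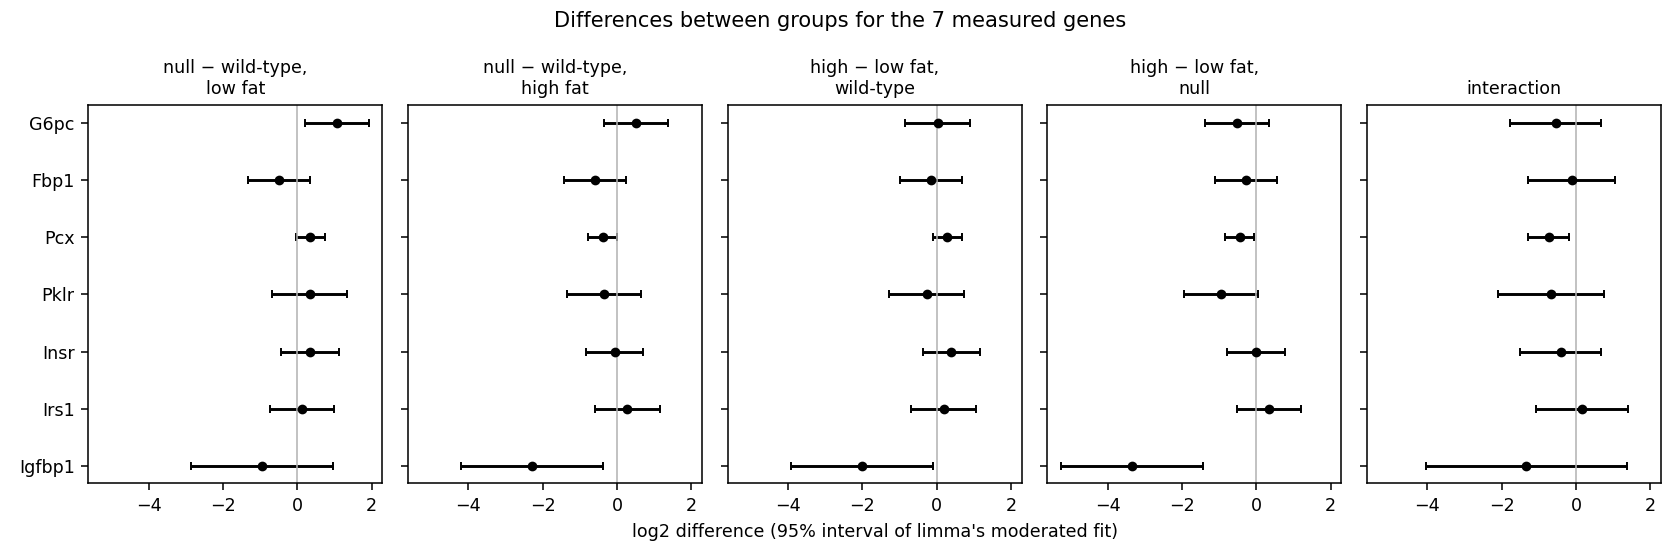
Differences in mean log2 ratio (x, points) with the 95% interval of limma's fit (bars) for the 7 genes (y) in the 4 pairwise comparisons and the interaction, all on 1 axis range. The intervals of Igfbp1 leave out 0 in 3 panels, those of G6pc in the low-fat genotype panel and those of Pcx in the null diet and interaction panels, before any adjustment over 14911 genes.

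Over the 12 arrays, Igfbp1 followed Fbp1 most closely among the members (r = 0.76), and G6pc ran against Fbp1 (r = -0.77). These r describe 12 arrays that share scans and one reference, and Igfbp1 and Fbp1 had saturated reference spots on 4 of the same arrays. Outside the set, the genes with the highest r were Il10rb (0.88), Ctnnbip1 (0.86) and Aldoa (0.86) for Igfbp1, and OTTMUSG00000007209 (0.95), 2610507B11Rik (0.92) and Gfm1 (0.92) for G6pc. For Fbp1 they were Adk (0.94), Snx1 (0.92) and Dbi (0.92), and for Insr Nsdhl (0.96), Golim4 (0.95) and 3110073H01Rik (0.94). For Pcx they included Fam47e (0.80) and LOC667597 (0.78). They were, for Pklr, C1qtnf2 (0.95), AV104666 (0.93) and Naa11 (0.91), and for Irs1 Srsf7 (0.92), Mfsd9 (0.90) and Mc4r (0.89). In the sample channel alone these r were mostly lower: 0.61 for Igfbp1 with Il10rb, -0.14 for G6pc with OTTMUSG00000007209 and -0.13 for Fbp1 with Adk, but 0.80 for Insr with Nsdhl, an enzyme of cholesterol synthesis.

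The wider pathway was read through 8 lists of 187 genes, of which 176 were measured. None passed the adjusted threshold in either direction in any list or comparison. At an unadjusted p under 0.05 there were 13 of 176 (7.39%) for genotype at low fat, 7 (3.98%) at high fat, 11 (6.25%) for diet in wild-type livers, 5 (2.84%) for diet in null livers and 2 (1.14%) for the interaction. The shares of all genes were 7.22%, 2.56%, 4.03%, 1.9% and 0.899% in the same order. The genes described are among those with the smallest p in their list. Of their differences given below, the arrays overlapped for Slc37a4, Gpt, Foxo1, Eif4ebp1, Trib3, Socs2, Mlxipl and Klf15. They also overlapped for diet in null livers for Ldhb, Pdk4 and Nr4a1, and for genotype at low fat for Fgf21.

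In gluconeogenesis and glucose release, 17 of 18 genes were measured, and 12 of 17 were lower in null livers on each diet (medians -0.21 and -0.09). Slc37a4, which carries glucose-6-phosphate to G6pc, was higher by 0.75 (SE 0.40, limma's adjusted p = 0.753) in null livers on low fat, with 1.80 in scan 1 and -0.08 in scan 2. Gpt, alanine aminotransferase, was higher by 0.77 (SE 0.32, adjusted p = 1.00) on high fat in null livers. Ldhb, a subunit of lactate dehydrogenase, differed by -0.45 (SE 0.21) on high fat in both genotypes.

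In glycolysis, all 26 genes were measured, and 18 of 26 were lower in null livers on low fat (median -0.14). That median was -0.64 in scan 1 and 0.0045 in scan 2. In the same comparison the macrophage markers had medians of -1.15 and 0.57 and the stellate markers of -1.17 and 0.01 in scans 1 and 2; their part in the list's median was not tested. Gpi1, which interconverts glucose-6-phosphate and fructose-6-phosphate, was lower, differing by -0.97 (SE 0.24, limma's adjusted p = 0.825) on high fat in wild-type livers without overlap, with -1.23 in scan 1 and -0.82 in scan 2, and by -0.39 (SE 0.24) in null livers. Slc2a2, the liver glucose transporter, was higher by 1.05 (SE 0.39, adjusted p = 1.00) on high fat in wild-type livers (2.30 in scan 1 and 0.64 in scan 2) and by 0.90 (SE 0.39, adjusted p = 0.671) in null livers on low fat (2.05 in scan 1 and 0.0014 in scan 2). Pfkfb3, which makes the activator fructose-2,6-bisphosphate, was higher by 0.67 (SE 0.27, adjusted p = 0.622) in null livers on low fat. Its liver relative Pfkfb1 was lower, differing by -0.56 (SE 0.27) in null livers on high fat.

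In glycogen metabolism, 16 of 17 genes were measured, with a median of 0.26 for diet in wild-type livers, where 12 of 16 were higher. Pygl, liver glycogen phosphorylase, was higher by 0.80 (SE 0.21, limma's adjusted p = 0.348) in null livers on low fat, without overlap. Within scans 1 and 2 the difference was 1.24 and 0.68, each against a single wild-type array. Ppp1r3g, a glycogen-targeting subunit of protein phosphatase, was lower, differing by -1.67 (SE 0.53, adjusted p = 0.490) in the same comparison. Gbe1, the branching enzyme, was lower, differing by -1.17 (SE 0.44, adjusted p = 1.00) in null livers on high fat.

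Around pyruvate dehydrogenase, 11 of 13 genes were measured. Pdk4, the kinase that switches the complex off during fasting, was lower on high fat, differing by -1.44 (SE 0.51, adjusted p = 1.00, no overlap) in wild-type and by -1.31 (SE 0.51, adjusted p = 1.00, overlapping arrays) in null livers. Mpc1, part of the mitochondrial pyruvate carrier, was lower in null livers without overlap on both diets, differing by -0.56 (SE 0.19, limma's adjusted p = 0.516) and -0.48 (SE 0.19, adjusted p = 1.00).

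In insulin signalling, 33 of 37 genes were measured, and medians lay between -0.02 and 0.01 in all 5 comparisons. Foxo1, the FoxO factor that insulin inactivates, was higher by 0.84 (SE 0.34, limma's adjusted p = 1.00) on high fat in null livers. Eif4ebp1, a repressor of translation that mTOR inactivates, was lower, differing by -0.73 (SE 0.25, adjusted p = 0.526) in null livers on low fat, and Tsc2, a brake on mTOR, by -0.79 (SE 0.29, adjusted p = 1.00) on high fat in null livers, with -1.12 in scan 1 and -0.12 in scan 2. Among 22 inhibitors of the pathway, all measured, 18 were lower on high fat in wild-type livers (median -0.14). That median was -0.38 in scan 1 but 0.05 in scan 2. Trib3, which binds Akt, was lower, differing by -1.50 (SE 0.79, adjusted p = 0.751) and Socs2, a growth hormone feedback inhibitor, higher by 1.99 (SE 0.82, adjusted p = 1.00) in null livers, on low and high fat in turn. Within scan 1 and scan 2 Trib3 differed by -3.72 and -0.28 and Socs2 by 2.63 and 0.49.

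Of transcriptional regulators of glucose genes, 33 of 36 were measured, with medians between -0.01 and 0.05. Within scans 1 and 2 the medians had opposite signs in each comparison. They were 0.10 and -0.22 for genotype at low fat and 0.05 and -0.04 at high fat. For diet they were 0.14 and -0.14 in wild-type and -0.01 and 0.09 in null livers, and for the interaction -0.09 and 0.22. Nr4a1, a nuclear receptor induced by glucagon, was lower on high fat, differing by -1.15 (SE 0.29, limma's adjusted p = 0.825) in wild-type and by -0.73 (SE 0.29, adjusted p = 1.00) in null livers. Mlxipl, which encodes the carbohydrate response factor ChREBP, was higher in null livers by 0.85 (SE 0.32, adjusted p = 0.593) on low fat, with 1.24 in scan 1 and -0.11 in scan 2. Klf15, a glucocorticoid target that promotes gluconeogenesis, was higher by 0.94 (SE 0.32, adjusted p = 1.00) on high fat in wild-type livers.

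The fasting and glucocorticoid list had the largest medians for genotype among the 8 lists. All 20 genes were measured, and 14 of 20 were lower in null livers on each diet, with medians of -0.37 and -0.39. The medians were -0.56 in scan 1 and -0.0062 in scan 2 at low fat, -0.43 and -0.51 at high fat. At low fat the stellate markers had a median of -0.65 (9 of 12 lower) and the macrophage markers of -0.32 (13 of 14 lower), and at high fat of -0.20 and 0.13; their part in the list's medians was not tested. Fgf21, a hormone of fasting, was lower, differing by -1.65 (SE 0.48, limma's adjusted p = 0.412) in null livers on low fat and by -1.37 (SE 0.48, adjusted p = 1.00) on high fat in wild-type livers, the latter with -2.21 in scan 1 and -0.42 in scan 2. Lpin2, a phosphatidate phosphatase, was lower in null livers without overlap on both diets, differing by -0.82 (SE 0.33, adjusted p = 0.634) and -1.30 (SE 0.33, adjusted p = 0.689). Asns, asparagine synthetase, an amino acid stress gene, was higher by 2.31 (SE 0.69, adjusted p = 1.00) in null livers on high fat. In the sample channel alone the list's medians for genotype were -0.29 and -0.38, and again no gene passed.

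**Figure D4:**
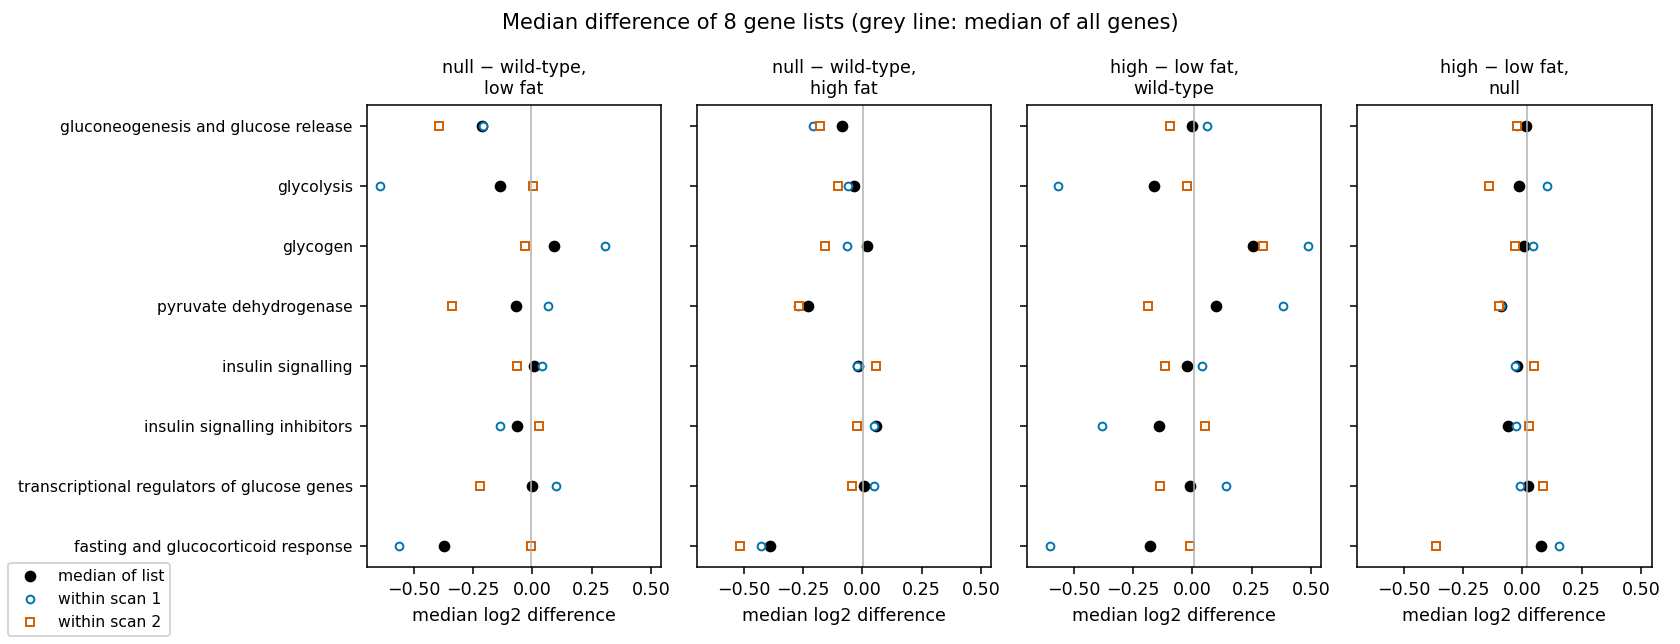
Median log2 difference (x) of 8 gene lists (y) in the 4 pairwise comparisons, with black points for all arrays, open blue circles within scan 1, open orange squares within scan 2 and a grey line at the median of all genes. The insulin signalling list stays near the grey line; the fasting and glucocorticoid list is at -0.37 and -0.39 for genotype, with -0.0062 within scan 2 at low fat.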

How the data were processed

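Liver RNA of 12 arrays in 4 groups of 3 was analysed from the scanner files. The deposited intensity values are mean spot and median local background signals of both colours from Agilent's Feature Extraction, per the file headers. The deposited log10 ratios are of Cy5 over Cy3, dye-normalised, per the file headers. The authors' deposited table holds log2 ratios, for which the submitters' processing notes name limma; on all 43379 spots it equals differences of group means of those log10 ratios, turned to log2 of Cy3 over Cy5, within 1e-06.

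Here, limma 3.58.1 in R 4.3.3 corrected background by normexp with an offset of 50 and normalised log2 ratios by loess within arrays. Non-uniform spots (120) were left out. Probes counted as measured if the sample signal stood well above background throughout 1 or more groups (21490 of 41174); each gene was represented by the brightest of them. Per array, 18375 to 23439 probes were well above background in the sample channel. One mean per group was fitted to all arrays (residual df 8, prior df 3.17), and p-values were adjusted over 14911 genes by Benjamini-Hochberg. Only the group fit was tested on simulated data, which were already normalised log2 ratios with independent noise and no scan or slide effect. Alternatives covered the normalisation, background, signal, filter, probe summary, variance, blocks and each array left out; leaving out saturated reference spots, reading the lists in the sample channel alone, and fitting the wild-type arrays alone with the replicate block were added after seeing the data.

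The members and gene lists were chosen with earlier results of these data known. Named were every member, the genes of each list with the smallest p where none passed (at most 2 for each comparison, selected ones printed), and the 3 genes with the highest r with each member, of which 1 is not reported here. Promoter windows are from RefSeq.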

Additional observations from a re-analysis of the deposited data

Results flagged for a closer look

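Pcx drew attention because its diet difference had opposite signs in the genotypes: every wild-type high-fat array was above every wild-type low-fat array, and every null high-fat array below every null low-fat array. The interaction was -0.735 on the log2 scale (limma's adjusted p = 1.00), so the difference between genotypes did not pass after adjustment. In the sample channel alone it was -0.41 (limma's adjusted p = 1.00), and there the wild-type arrays overlapped. With Agilent's processed signals it was -0.39 (limma's adjusted p = 1.00). On the ratio scale the wild-type low-fat arrays were all below 0, at -0.24 ± 0.09 (SD, n = 3), although the reference was pooled from that group.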

How the results depend on the processing

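No member passed in any of the 5 comparisons under any of 16 alternatives or with any of 12 arrays left out; the smallest adjusted p was 0.0972, for Igfbp1 and diet in null livers in the sample channel alone. Of 945 alternative values of the 35 member differences, 32 turned in sign, in 11 differences. Many of the 945 could not turn, because the setting leaves the size of the difference as it was. Such settings are the normalisation between arrays, the probe-level fit, the variance and the fit of a comparison's groups only. The same holds for an array left out of a group that a pairwise comparison does not use. The 945 are therefore no measure of how firm the signs are. No Igfbp1 or Pcx difference turned, but the Pcx interaction ranged from -1.09 with median centring to -0.39 with Agilent's processed signals. The Igfbp1 interaction was -0.03 without saturated reference spots, a fit that also lacked every scan 2 array.

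Median centring turned Fbp1 to 0.21 for genotype at low fat and 0.11 for diet in wild-type livers, Insr to 0.13 for genotype at high fat and Irs1 to -0.11 for the interaction. No background correction turned Insr to 0.0072 for genotype at high fat and 0.12 for diet in null livers. Agilent's processed signals turned Insr to 0.070 for genotype at high fat and G6pc to -0.070 for diet in wild-type livers. The sample channel alone turned G6pc to -0.057 for that diet difference and Irs1 to -0.060 for the interaction. Without saturated reference spots, which for Fbp1 leaves out scan 2, the Fbp1 interaction was 0.10. The cause was not tested.

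With 1 array left out in turn, the differences that turned ranged as follows. For genotype at low fat, Irs1 ranged from -0.27 to 0.46 and Pklr from -0.16 to 0.78. For genotype at high fat, Insr ranged from -0.39 to 0.20. For diet in wild-type livers, G6pc ranged from -0.28 to 0.20, Fbp1 from -0.45 to 0.094 and Irs1 from -0.21 to 0.48. For diet in null livers, Fbp1 ranged from -0.67 to 0.052 and Insr from -0.35 to 0.24. For the interaction, Fbp1 ranged from -0.51 to 0.21 and Irs1 from -0.18 to 0.55. Igfbp1 ranged from -4.19 to -2.41 for diet in null livers and from -3.12 to -1.73 for genotype at high fat, and Pklr from -1.40 to -0.46 for diet in null livers.

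Over all groups, deviations of same-numbered arrays had a median r of -0.013 (18 pairs, lowest -0.58), so the numbers do not pair arrays there. The scans did: the median r was 0.38 for 20 pairs of the same scan and -0.18 for 34 pairs of different scans. The main fit had no scan term, and genotypes were not balanced over scans. Between the wild-type groups, where the number is the scan, r was 0.33, 0.34 and 0.46, so the numbers pair those arrays. The fit of these 6 arrays with the replicate block, added after seeing the data, put 0 members and 0 genes past the threshold for diet, against 1 gene without it, and changed no other call. With the replicate block on all 12 arrays, 0 members passed in each comparison, and all genes past the threshold numbered 1, 1, 0, 1 and 0 for genotype at low and high fat, diet in wild-type and null livers and the interaction, against 3, 2, 1, 1 and 0 without it.

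The counts of all genes moved with the processing. For genotype at low fat, high fat and diet in wild-type livers they were 0, 0 and 0 with median centring or trended robust variance, 11, 21 and 2 without background correction, and 56, 51 and 5 with Agilent's processed signals. They were 50, 54 and 3 in the sample channel alone, where diet in null livers gave 5. No filter gave 1, 1 and 0; probes well above background on all 12 arrays gave 5, 1 and 1; the probe-level fit gave 4, 1 and 1; fitting the groups of a comparison only gave 0, 3 and 0. Scan as a block gave 4, 5 and 0, slide as a random block 3, 15 and 2, and leaving out saturated reference spots 6, 2 and 1. With 1 array left out they ranged from 1 to 28, 0 to 8 and 0 to 1, and median centring gave 0 for diet in null livers.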

Other observations

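The reference pool came from wild-type low-fat liver, yet the mean log2 ratios of the wild-type low-fat arrays were not all near 0. They were -1.05 ± 0.70 (SD, n = 3) for Igfbp1, 0.53 ± 0.42 (SD, n = 3) for Insr, -0.37 ± 0.71 (SD, n = 3) for Irs1, -0.24 ± 0.09 (SD, n = 3) for Pcx with all 3 arrays below 0, 0.21 ± 0.51 (SD, n = 3) for Pklr, 0.23 ± 0.37 (SD, n = 3) for G6pc and -0.04 ± 0.09 (SD, n = 3) for Fbp1.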
